A study of Homo sapiens with 12 samples.

Results

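The mitochondrial genome encodes 37 of the 60504 genes in the deposited tables, chosen here as all genes whose name starts with MT-. They comprised 13 mRNAs, 2 rRNAs and 22 tRNAs. They were followed in 12 RNA sequencing libraries of the human bladder cancer line T24. In the knockout comparison, 2 libraries labelled U11 knockout stood against 2 of untreated T24. In the knockout model, U11 was targeted by CRISPR/Cas9 with a pair of guide RNAs in the pX330 vector, and monoclonal cells were selected. In the overexpression comparison, 6 libraries labelled U11 overexpression stood against 2 further ones of untreated T24. In the overexpression model, T24 cells carried the plasmid pcDNA-U11 and were also selected as monoclonal cells. The overexpression libraries carried a line label, 79, 86 or 87 (2 libraries per label), the meaning of which is not stated. The library identifiers split the overexpression comparison into 2 sets, each with 1 control and 1 library of every line label. The labels do not say that libraries of one group came from separate cultures, so P-values measure the spread between these libraries, which may be technical.

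Mitochondrial DNA is transcribed from both strands into long precursors, and most mRNAs and rRNAs in them are flanked by tRNAs. RNase P and ELAC2 cut at the ends of the tRNAs and so release the RNAs between them. The mRNAs encode subunits of the respiratory chain and the ATP synthase, and the rRNAs and tRNAs serve the translation of these mRNAs inside the organelle. On chrM of hg38, which is 16569 bases long, 28 of the genes lie on the plus strand and 9 on the minus strand. The minus-strand genes are MT-ND6 and 8 tRNAs.

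All genes called (thresholds below) with line label 79 were tRNAs, so sequences of tRNA genes are shown. They run from the 5′ to the 3′ end of the RNA, as DNA letters of hg38, with the anticodon in capitals. The first group lies on the plus strand and was up-regulated in the libraries with line label 79.
MT-TW, tRNA for tryptophan, chrM:5512-5579, plus strand: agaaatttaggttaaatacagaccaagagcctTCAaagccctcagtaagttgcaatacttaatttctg
MT-TK, tRNA for lysine, chrM:8295-8364, plus strand: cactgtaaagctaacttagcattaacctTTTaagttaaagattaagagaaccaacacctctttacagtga
MT-TG, tRNA for glycine, chrM:9991-10058, plus strand: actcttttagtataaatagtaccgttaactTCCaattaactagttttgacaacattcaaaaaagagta
MT-TR, tRNA for arginine, chrM:10405-10469, plus strand: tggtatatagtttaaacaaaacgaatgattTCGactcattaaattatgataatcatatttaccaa
MT-TI, tRNA for isoleucine, chrM:4263-4331, plus strand: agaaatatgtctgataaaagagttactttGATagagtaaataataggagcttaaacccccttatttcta

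Another 3 tRNAs of that group, MT-TH (histidine), MT-TS2 (serine) and MT-TL2 (leucine), follow one another with no base between them at the boundary of MT-ND4 and MT-ND5. The stretch is shown because it makes visible how a run of tRNAs separates a pair of mRNAs. Capitals mark MT-TH and MT-TL2, the lower-case run between them is MT-TS2, and the outer lower-case bases are the last 15 of MT-ND4 and the first 15 of MT-ND5.
Boundary of MT-ND4 and MT-ND5, chrM:12123-12351, plus strand: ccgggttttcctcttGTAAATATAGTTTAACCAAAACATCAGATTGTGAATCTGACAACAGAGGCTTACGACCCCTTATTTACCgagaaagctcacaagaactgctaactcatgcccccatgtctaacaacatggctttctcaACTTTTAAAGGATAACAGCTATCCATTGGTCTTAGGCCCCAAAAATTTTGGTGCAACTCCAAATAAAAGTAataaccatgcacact

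The last group is a run of 4 tRNAs on the minus strand between MT-TW and MT-CO1. Its members are shown because their levels did not follow those of the mRNAs between the comparisons.
MT-TA, tRNA for alanine, chrM:5587-5655, minus strand: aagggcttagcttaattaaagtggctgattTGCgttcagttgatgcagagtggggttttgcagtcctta
MT-TN, tRNA for asparagine, chrM:5657-5729, minus strand: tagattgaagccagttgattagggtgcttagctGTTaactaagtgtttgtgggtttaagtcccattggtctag
MT-TC, tRNA for cysteine, chrM:5761-5826, minus strand: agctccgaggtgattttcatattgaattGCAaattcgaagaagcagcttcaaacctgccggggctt
MT-TY, tRNA for tyrosine, chrM:5826-5891, minus strand: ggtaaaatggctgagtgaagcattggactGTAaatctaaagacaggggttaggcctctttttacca

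The labels were first checked against U11 itself. Levels are given as TPM, which scales reads by gene length and by the library total. Summed over its 2 overlapping entries, U11 read 21.4 and 23.8 TPM in the controls of the knockout comparison against 31.6 and 37.4 TPM under the knockout label. U11 was thus higher, not lower, in both libraries labelled U11 knockout, and every direction given for these libraries rests on a label that the U11 level goes against. In the overexpression comparison, U11 was at 0.033 and 0.62 TPM in the controls, 0.18 and 0.41 with line label 79, 3.98 and 3.72 with line label 86, and 61.9 and 53.6 with line label 87. U11 was above the controls with line labels 86 and 87, while line label 79 overlapped them.

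Of 15 urothelial marker genes, 7 reached 1 TPM in all 12 libraries (KRT7, KRT8, KRT18, KRT19, GATA3, PPARG and FOXA1). The other 8, among them KRT5, KRT20, TP63 and the uroplakins, stayed under 1 TPM in every library. Of 8 markers of blood, endothelial and stromal cells, 7 stayed under 1 TPM everywhere and CD14 reached it in 1 library, at 1.18 TPM. The libraries held 9.07 to 15.33 aligned gigabases. In bulk RNA, fewer cells carrying a transcript and less of it per cell cannot be told apart.

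The controls of both comparisons were untreated T24. Yet the mitochondrial mRNAs and rRNAs differed more between these controls than in any comparison with a U11 label. Mitochondrial genes took 0.206% to 0.352% of the aligned bases in the 4 libraries of the knockout comparison and 1.89% to 2.23% in the 8 libraries of the overexpression comparison. The 13 mRNAs summed to 2860 ± 468 TPM (SD, n = 2) in the controls of the knockout comparison and to 49933 ± 1817 TPM (SD, n = 2) in those of the overexpression comparison, 17.5 times as much. The 2 groups did not overlap, but 2 against 2 libraries cannot go below an exact permutation P of 0.333 (two-sided). Transcripts of the replication-dependent histones, most of which lack a poly(A) tail, moved the other way, with 27662 to 34279 TPM in the knockout comparison and 103 to 180 TPM in the overexpression comparison (89 genes). The 10 most abundant genes took 45.5% to 49.6% of all TPM in the former and 7.06% to 7.56% in the latter. The labels name polyA RNA for every library and the study's methods name ribosomal RNA depletion. The part of the RNA fraction sequenced in the mitochondrial difference was not tested, and library preparation, library identifier series and culture cannot be told apart.

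**Figure D1:**
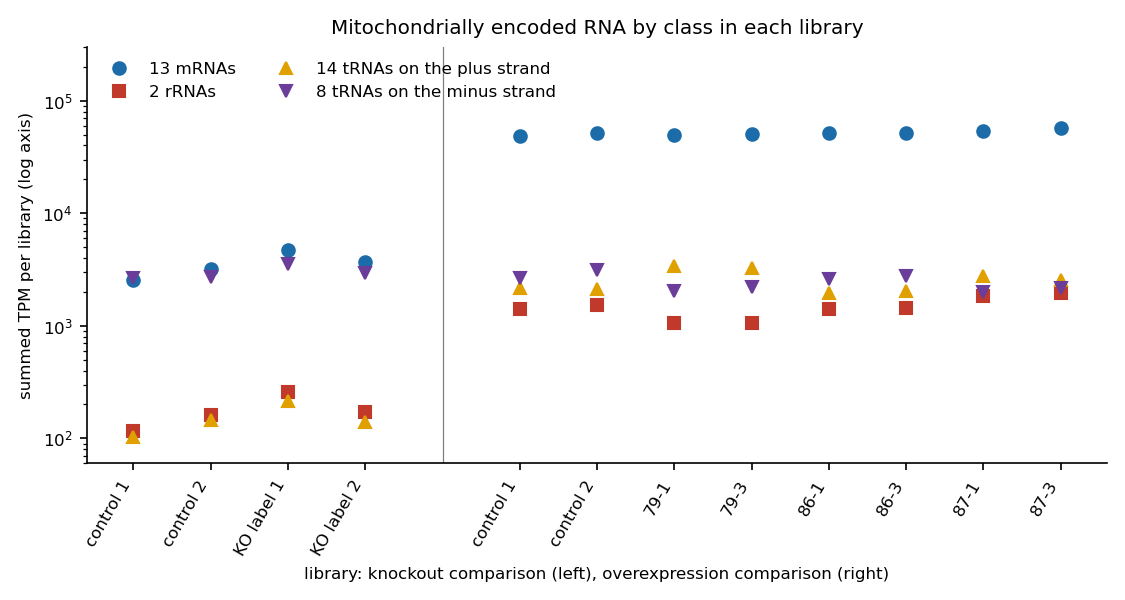
Summed TPM (log axis) of the mitochondrial mRNAs, rRNAs, plus-strand tRNAs and minus-strand tRNAs in each of the 12 libraries, with 1 point per class and library. The mRNA sums lie at 2529 to 4757 TPM in the knockout comparison and at 48648 to 56891 TPM in the overexpression comparison, while the minus-strand tRNA sums lie at 2660 to 3532 and 1983 to 3131 TPM.

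Genes were called with limma on log2(TPM + 1) where P, unadjusted, was under 0.05 and the change reached 1.5-fold, the thresholds of the study. Between the 2 sets of untreated controls, 33 of the 37 mitochondrial genes were called, 32 of them lower in the knockout comparison, against 73.9% of all 14978 genes tested (70.4% lower). The median gene also had a log2 difference of -0.86 (-0.062 with median ratio scaling of the same TPM), and the values below are read against that shift. All 13 mRNAs were lower under each of the 4 scalings tried. The subunits of the ATP synthase differed most. MT-ATP8 was at 28.9 and 36.7 TPM in the controls of the knockout comparison and at 4244 and 4647 TPM in those of the overexpression comparison (log2 difference -7.05 ± 0.14 SE). MT-ATP6 was at 14.7 and 20.1 against 2197 and 2394 TPM (-6.98 ± 0.16).

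Among the subunits of complex I, which passes electrons from NADH into the chain, the log2 difference was -6.83 for MT-ND6, -6.61 for MT-ND4, -6.56 for MT-ND4L, -6.42 for MT-ND2, -6.20 for MT-ND5 and -5.71 for MT-ND1. MT-ND3 differed less (-3.48), from 97.7 and 114.6 TPM to 1075 and 1316 TPM. MT-CYB, the mitochondrially encoded subunit of complex III, gave -5.11. The smallest differences among the mRNAs belonged with MT-ND3 to the catalytic subunits of complex IV, cytochrome c oxidase, at -3.99 for MT-CO2, -3.86 for MT-CO1 and -2.31 for MT-CO3.

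The balance of the mRNAs therefore differed between the comparisons and not only their sum. Complex IV transcripts made up 84.0% to 87.1% of the mitochondrial mRNA TPM in the 4 libraries of the knockout comparison and 45.1% to 51.0% in the 8 libraries of the overexpression comparison. MT-CO3 was the most abundant mitochondrial gene in the former (mean 1484 TPM) and MT-CO1 in the latter (mean 10502 TPM). Between the controls, the summed complex V transcripts differed 134-fold, complex I 58.6-fold, complex III 34.3-fold and complex IV 10.03-fold. MT-CO1 exceeded MT-ND1 by 30.9 to 38.1 times in the knockout comparison and by 5.96 to 10.4 times in the overexpression comparison. Both rRNAs were also lower in the controls of the knockout comparison, by -3.57 ± 0.17 for MT-RNR2 (large ribosomal subunit) and -2.86 ± 0.22 for MT-RNR1 (small subunit) on the log2 scale.

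**Figure D2:**
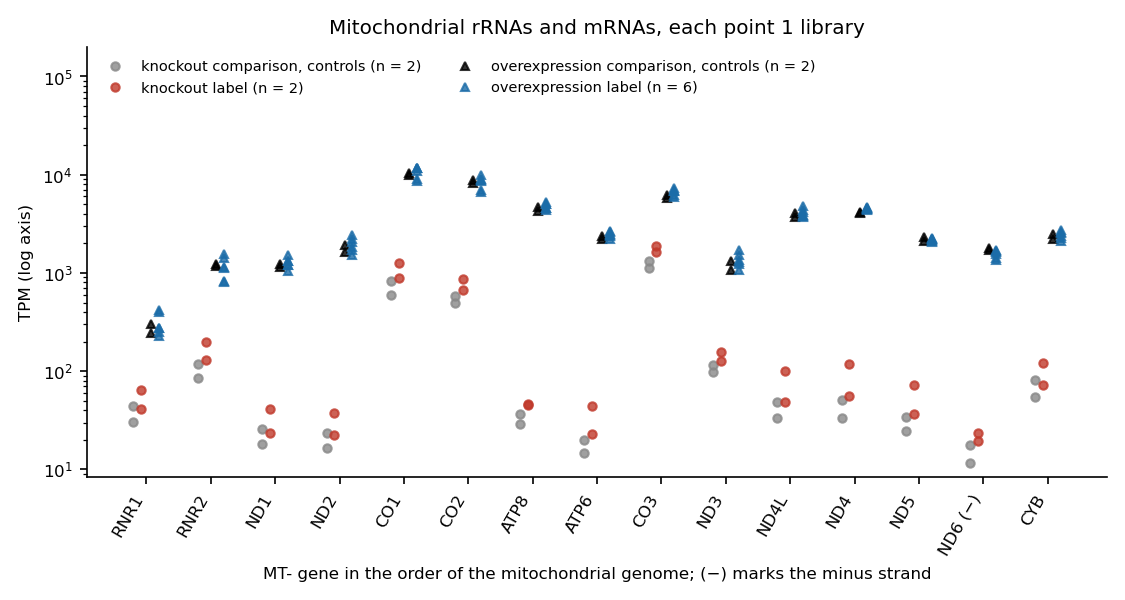
TPM (log axis) of the 2 rRNAs and 13 mRNAs in genome order, with 1 point per library and colours for the 4 groups of libraries. MT-CO3 comes closest between the comparisons (1113 to 1869 TPM against 5786 to 7405 TPM), while MT-ATP8 differs most (28.9 to 46.4 TPM against 4244 to 5276 TPM).

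The tRNA sums split by strand. The 14 on the plus strand summed to 124 ± 29.5 TPM in the controls of the knockout comparison and to 2140 ± 21.6 TPM in those of the overexpression comparison (SD, n = 2 each), a 17.3-fold difference. Their median log2 difference was -3.63, against -6.20 for the 13 mRNAs. The 5 tRNAs with the largest change on the log2(TPM + 1) scale were all of that strand. They were MT-TL1 (leucine) at -6.67, MT-TL2 at -5.05, MT-TS2 at -4.96, MT-TH at -4.83 and MT-TG at -4.32. MT-TV, under 1 TPM in both controls of the knockout comparison, gave -4.04. In mean TPM it differed 38.2-fold, against 34.9-fold for MT-TL2. The added 1 TPM understates the change of such low genes, also in the median of -3.63. The 8 on the minus strand summed to 2677 ± 23.9 and 2883 ± 350 TPM (SD, n = 2 each), groups that overlapped.

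That near equality came from the run MT-TA, MT-TN, MT-TC and MT-TY. Their sum was 2375 and 2385 TPM in the controls of the knockout comparison and 2260 and 2689 TPM in those of the overexpression comparison. None of the 4 was called (log2 differences -0.45, -0.25, 0.33 and -0.15). With median ratio scaling all 4 were higher in the knockout comparison, with a median of 0.70. MT-TC was the most abundant tRNA in each of the 4 libraries of the knockout comparison, at 939 to 1262 TPM, with MT-TY and MT-TN next. In the overexpression comparison MT-TC, at 494 to 798 TPM, was the highest tRNA in both controls and both libraries of line label 86, again followed by MT-TN and MT-TY. With line labels 79 and 87 MT-TS2 was above it in all 4 libraries, at 749 against 538, 713 against 577, 587 against 494 and 539 against 533 TPM. In the knockout comparison MT-TC was thus as abundant as MT-CO1, with 1.00 to 1.61 times its TPM, whereas in the overexpression comparison it reached 0.0427 to 0.0775 times. The single gene called higher in the knockout comparison was MT-TP (proline), also on the minus strand, at 269 and 288 TPM against 126 and 148 TPM (log2 difference 1.02 ± 0.11). The other 3 minus-strand tRNAs (MT-TQ, MT-TS1 and MT-TE) were lower there, by 2.61, 1.89 and 3.89 on the log2 scale. A tRNA gene spans 59 to 75 bases, shorter than a sequenced read, so the values do not tell a mature tRNA from a longer precursor that contains it. Whether counting used the strand is not given in the sources used here, and reads from a minus-strand gene and from the transcript opposite it cannot be told apart without it.

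**Figure D3:**
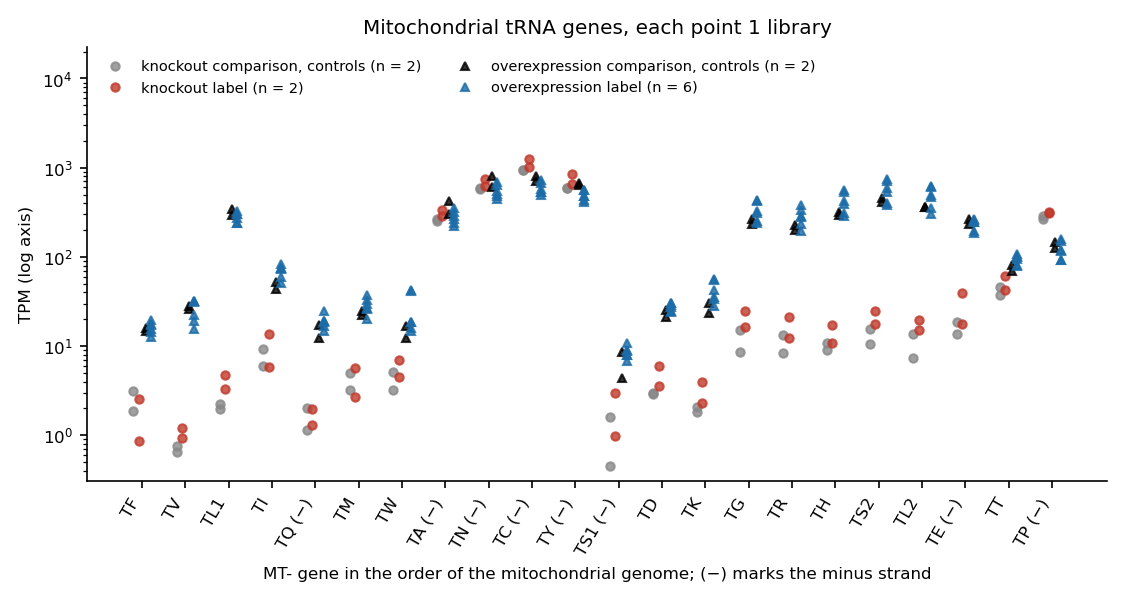
TPM (log axis) of the 22 tRNA genes in genome order, with 1 point per library and colours for the 4 groups of libraries. MT-TA, MT-TN, MT-TC and MT-TY lie at similar heights in both comparisons, MT-TP is the only other gene that is not lower in the knockout comparison, and MT-TW and MT-TK show 2 overexpression libraries above the rest.

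The knockout comparison asked what changes with U11 knockout. Of 36 mitochondrial genes tested, 3 were called in the libraries labelled U11 knockout and all 3 were up-regulated, against 11.8% of the 14356 genes tested (8.61% up-regulated). None of the 36 passed a Benjamini-Hochberg adjusted P of 0.05 in limma, which 7.82% of all genes did, while 8 had an unadjusted P under 0.05, where 30.1% of all genes tested did. MT-TV (valine) was not tested, since it reached 1 TPM in 1 of the 4 libraries and the filter required 2. The share called was therefore no higher than the background, and its difference from the background was not tested. The count became 0 on FPKM and 1 under median ratio scaling, neither of which called any of these 3 genes. Without a filter on low values MT-TL1 alone was called.

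MT-CO1 read 591 and 829.8 TPM in the controls against 1261 and 896 TPM under the knockout label, a log2 fold change of 0.60 ± 0.23 (SE, adjusted P = 0.16). MT-TS2 was at 10.7 and 15.5 against 24.5 and 17.5 TPM (0.65 ± 0.24, adjusted P = 0.16). MT-TL1 was at 1.98 and 2.25 against 4.73 and 3.32 TPM (0.68 ± 0.18, adjusted P = 0.089). In these 3 genes, which were picked by their call, both labelled libraries were above both controls. The first labelled library was the highest.

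All 13 mRNAs were higher on average in the libraries labelled U11 knockout, also under each other scaling. Their median log2 fold change was 0.54, where that of all genes was 0.108. With median ratio scaling these were 0.40 and -0.0188. The mRNA sum was 2529 and 3191 TPM for controls against 4757 and 3680 TPM for labelled libraries, without overlap (exact permutation test, two-sided, P = 0.333, the smallest that 2 against 2 allow). The groups did not overlap in 23 of the 36 genes, all higher, where 39.9% of all genes did so in that direction. MT-ND4 had the largest average difference among the mRNAs (0.96 ± 0.40), at 33.5 and 50.6 against 117.5 and 55.5 TPM, and was not called. MT-CO3 had the smallest P (0.0067), at 1113 and 1321 against 1869 and 1634 TPM, and stayed under the fold threshold (0.53 ± 0.12).

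The difference was larger in one of the labelled libraries. Against the mean of both controls, the first library labelled U11 knockout had 1.79 times the TPM in the median mRNA (1.37 to 2.79) and the second 1.25 times (1.07 to 1.42), so all 13 mRNAs were above that mean in each. For MT-ND1, MT-ND2 and MT-CYB the second labelled library lay between the controls. The count of called genes depended on the libraries used. Without the first labelled library 1 mitochondrial gene was called, and it was lower, where 1385 of all 13788 genes were called. Without the first control 1 was called, where 11.4% of all genes were. Without the second labelled library 18 were called (13.2% of all genes) and without the second control 21 (18.0%). The overlapping genes MT-ATP8 and MT-ATP6, which share reads, stood apart in the first labelled library as well. MT-ATP8 over MT-ATP6 was 1.01 there and 1.83 to 2.03 in the other 11 libraries. The histone sum was 34279 and 31589 TPM in the controls and 29172 and 27662 TPM in the labelled libraries, so it moved opposite to the mitochondrial mRNAs, and its part in the result was not tested. Depth behind the tRNAs was lowest in this comparison, with a mean coverage of 4.66 to 12.2 reads per base in the least covered tRNA of each library.

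**Figure D4:**
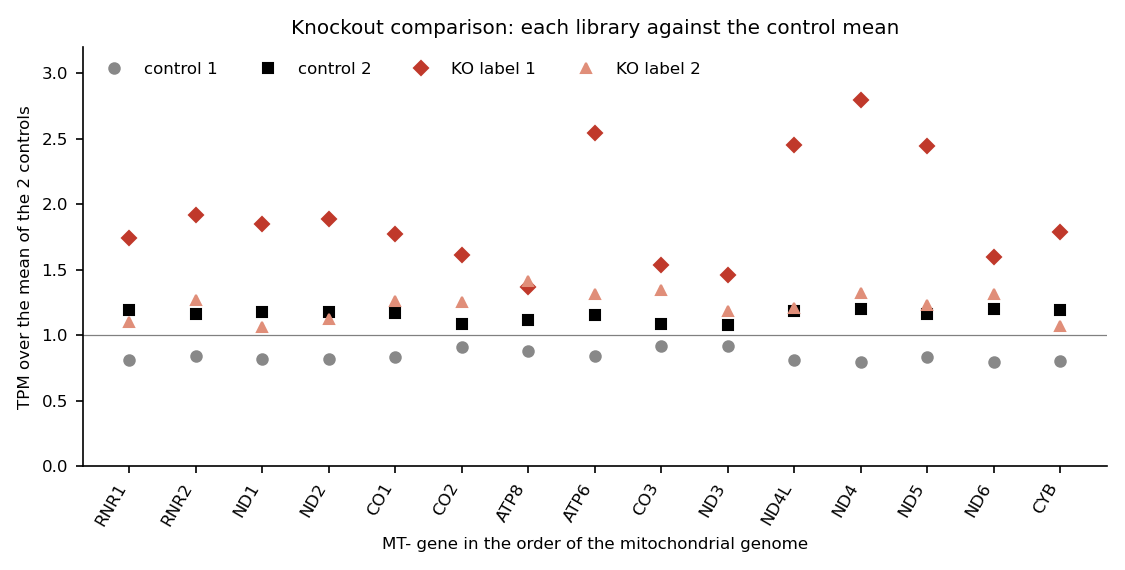
TPM of each library of the knockout comparison divided by the mean of the 2 controls, for the 2 rRNAs and 13 mRNAs in genome order. The first library labelled U11 knockout stands above the rest in every gene but MT-ATP8, and the second lies close to the second control, as at MT-RNR1 (41.0 and 44.4 TPM).

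The overexpression comparison asked what changes with U11 overexpression. Over all 6 libraries, 0 of the 37 genes were called by limma and 4 had an unadjusted P under 0.05, against 1.93% called and 6.0% with such a P of 15768 genes tested. The mRNA sum was 48648 and 51218 TPM in the controls and ran from 49992 through a median of 51625.5 to 56891 TPM in the overexpression libraries (log2 difference 0.066; exact permutation test, two-sided, P = 0.286, where 0.0357 is the smallest possible). The groups overlapped, and the mean of the 3 overexpression libraries was 1.06 times the control in the first library set and 1.03 times in the second. Overexpression and control libraries did not overlap in 3 of the 37 genes, where 9.87% of all genes tested did so. MT-TY was at 634 and 677 TPM in controls, against 412 to 562 TPM in the overexpression libraries, all below the controls, but its mean difference of -0.43 ± 0.13 (log2, SE) stayed under the fold threshold and its adjusted P was 0.53. MT-ND6 was likewise lower in all 6 libraries (1350 to 1703 against 1718 and 1778 TPM; -0.17 ± 0.10, adjusted P = 0.90). MT-ND4 was higher in all 6 (4337 to 4687 against 4036 and 4186 TPM; 0.14 ± 0.07, adjusted P = 0.88).

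Taken by line label, the 6 libraries were not alike. The line labels share the same 2 controls, so their contrasts are not independent of each other. With line label 79, 8 of 37 genes were called, all tRNAs of the plus strand and all up-regulated, against 7.95% of all genes tested (2.43% up-regulated). All 8 also had an adjusted P under 0.05, as had 14 of the 37 regardless of fold (9.91% of all genes), and 24 had an unadjusted P under 0.05 (24.1%). With line label 86, 1 gene was called (background 3.6%), 4 had an unadjusted P under 0.05 (13.5%) and none passed the adjusted P in limma (1.96%). With line label 87, 3 genes were called (background 5.13%), 17 had an unadjusted P under 0.05 (17.8%) and 6 an adjusted one (3.68%).

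MT-TW had the largest change with line label 79. It was at 12.5 and 16.9 TPM in the controls, 41.0 and 42.1 with line label 79, 14.6 and 15.8 with line label 86, and 18.6 and 18.7 with line label 87. Both libraries of line label 79 were more than double any other library in the comparison, and the log2 fold change over controls was 1.45 ± 0.14 (SE, adjusted P = 0.0025). Its ratio to the control of the same library set was 3.29 in the first and 2.49 in the second.

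MT-TK was at 23.2 and 30.5 TPM in controls, against 56.1 and 55.7 with line label 79 (1.04 ± 0.21, adjusted P = 0.027). It was at 35.0 and 33.9 with line label 86 and 42.6 and 28.0 with line label 87, so line label 79 again held the 2 highest libraries. MT-TG, on the plus strand before MT-ND3, was at 233 and 266 TPM in the controls and 430.1 and 422 with line label 79 (0.77 ± 0.08, adjusted P = 0.0029).

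The run MT-TH, MT-TS2 and MT-TL2, printed above, rose as a block with line label 79. MT-TH was at 321 and 296 TPM in controls, against 555 and 529 with line label 79 (0.81 ± 0.08, adjusted P = 0.0025). MT-TS2 was at 451 and 414 against 749 and 713 TPM (0.76 ± 0.07). MT-TL2 was at 365.1 and 365.1 against 628 and 615 TPM (0.77 ± 0.07). The mRNAs on both sides did not show the same difference. MT-ND4 changed by 0.09 ± 0.05 and MT-ND5 by -0.08 ± 0.07 on the log2 scale, and neither passed the test. MT-TL2 over MT-ND5 was 0.156 and 0.171 in the controls, 0.287 and 0.301 with line label 79, 0.137 and 0.163 with line label 86 and 0.218 and 0.210 with line label 87. MT-TR (0.76 ± 0.12) and MT-TI (0.71 ± 0.12) completed the 8, and MT-TI fell under the fold threshold without the second control (0.57). MT-TT (threonine), at 69.6 and 81.9 against 101 and 107 TPM, passed the adjusted P (0.035) but not the fold threshold (0.45 ± 0.10).

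Summed over the plus strand, the 14 tRNAs were at 2155 and 2124 TPM in the controls and 3385 and 3288 TPM with line label 79, a ratio of 1.56 (exact permutation test, two-sided, P = 0.333, the smallest possible). On the minus strand, 6 of 8 tRNAs were lower with line label 79. The run MT-TA, MT-TN, MT-TC and MT-TY summed to 2260 and 2689 TPM in the controls and to 1738 and 1899 TPM with line label 79, with log2 fold changes of -0.45, -0.44, -0.43 and -0.43, all under the fold threshold. Of these, MT-TC and MT-TY had an adjusted P under 0.05 (0.026 and 0.0085). MT-TP, the lowest of all 37 genes, was at -0.57 ± 0.18 and did not pass the adjusted P (0.11). MT-TE (glutamate) at -0.39 ± 0.08 and MT-ND6 at -0.33 ± 0.06, minus-strand neighbours, had adjusted P of 0.029 and 0.017. Of the rRNAs, MT-RNR2 was at 1171 and 1244 TPM in the controls and 815 and 821 with line label 79 (-0.56 ± 0.06, adjusted P = 0.0046). MT-RNR1 was at 246 and 301 against 248 and 231 TPM and did not pass the test (-0.19 ± 0.10). No mRNA was called with line label 79. The highest were MT-ND3 (0.44 ± 0.13) and MT-ND2 (0.41 ± 0.11), and the lowest next to MT-ND6 was MT-CO2 (-0.31 ± 0.08). The direction within the first library set matched that within the second in 35 of 37 genes, 23 of them higher with line label 79. The histone sum was 146 and 148 TPM in the controls and 180 and 174 with line label 79, and its part in these differences was not tested.

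With line label 87, which had the highest U11, MT-RNR1 rose from 246 and 301 TPM in the controls to 420 and 404 TPM (0.60 ± 0.10, adjusted P = 0.033). MT-TI rose from 52.8 and 43.3 to 74.4 and 72.2 TPM (0.61 ± 0.12, adjusted P = 0.052). MT-TY fell from 634 and 677 to 412 and 437 TPM (-0.63 ± 0.06, adjusted P = 0.0043). The groups did not overlap in any of these 3 genes, but they were picked by their call, so this is no further support. Each fell under the fold threshold when some single library was left out. The rest of the run moved by -0.54 (MT-TA), -0.55 (MT-TN) and -0.55 (MT-TC) without reaching the fold threshold, and the run summed to 1574 and 1750 TPM. The 2 rRNAs summed to 1839 and 1953 TPM, against 1417 and 1544 in the controls. MT-TH (0.40 ± 0.08), MT-TS2 (0.38 ± 0.07) and MT-TL2 (0.39 ± 0.07) were higher than in the controls below the fold threshold, with adjusted P of 0.047, 0.04998 and 0.046. Without the first library of line label 87 1 gene was called (5.98% of all genes), without the first control 5 (5.54%) and without the second library of line label 87 9 (6.1%). The direction matched between the library sets in 30 of 37 genes.

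With line label 86, MT-TV was called, at 27.8 and 26.3 TPM in the controls and 19.3 and 15.4 TPM (-0.62 ± 0.18, adjusted P = 0.20). Both libraries lay below both controls, which is no support beyond the call. The call was lost without the first control or without the second library of line label 86. The other 36 genes lay between -0.23 and 0.41 on the log2 scale and were not called, and the direction matched between the library sets in 19 of 37 genes.

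**Figure D5:**
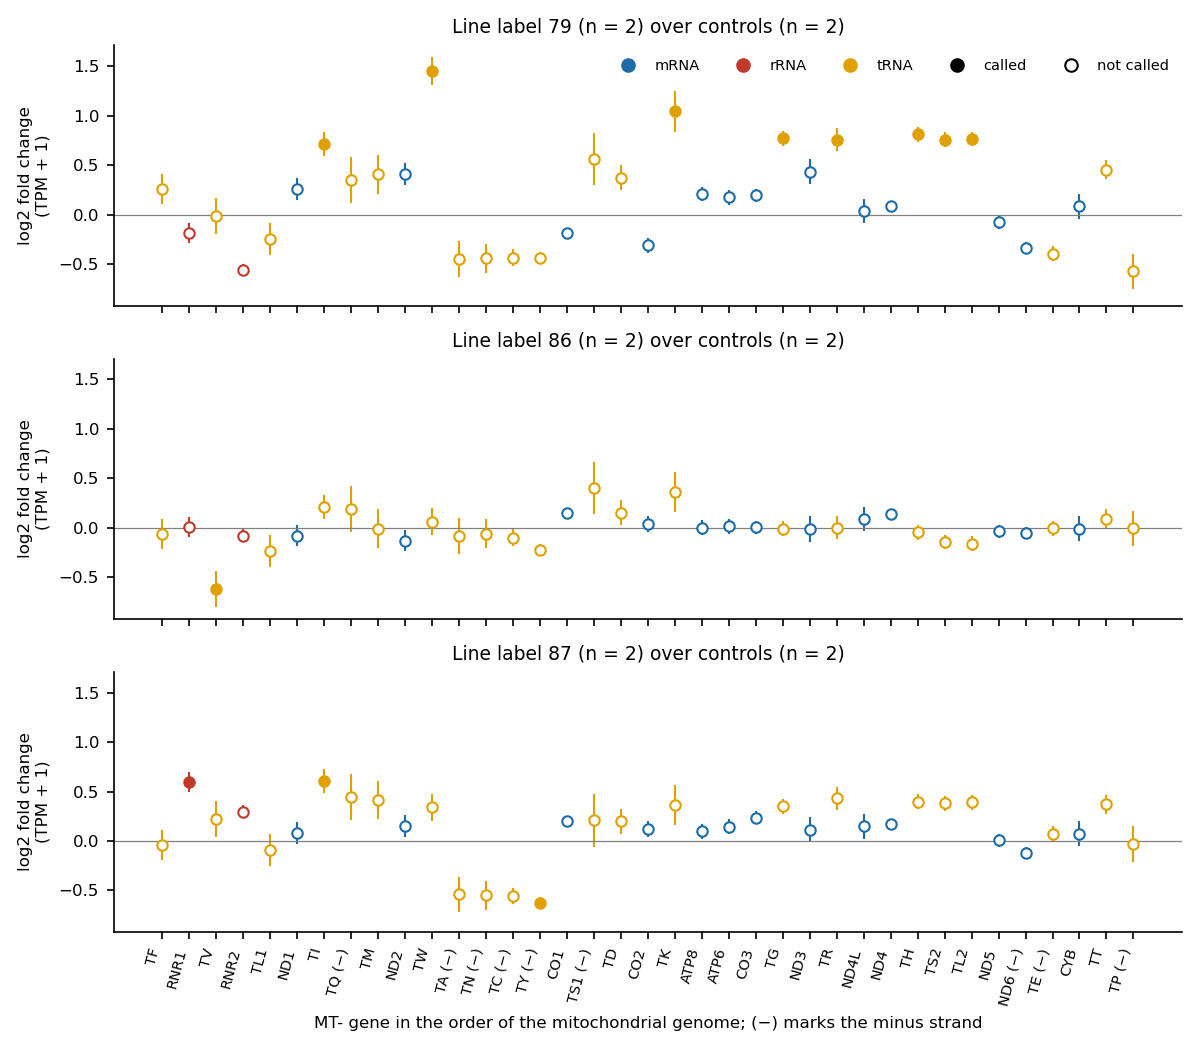
Log2 fold change over the 2 controls, on log2(TPM + 1), of all 37 genes in genome order for line labels 79, 86 and 87 (n = 2 each), with bars of 1 SE and filled points for genes called. With line label 79 the filled points are the 8 plus-strand tRNAs between 0.71 and 1.45, while the run MT-TA to MT-TY lies near -0.44 with line label 79 and near -0.55 with line label 87.

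The difference between the lines was tested directly. By the F test over the 3 line labels in limma, 16 of 37 genes had an adjusted P under 0.05, against 16.0% of all 15768 genes tested. They were 10 tRNAs, both rRNAs and 4 mRNAs (MT-CO1, MT-CO2, MT-ND2 and MT-ND6). Without a filter on low values fewer of the 37 passed, and with the library sets as a block more did (19.5% of all genes tested). The count fell with 1 library left out, to 10 or 9 without a library of line label 79, 8 or 9 without one of 86 and 11 or 10 without one of 87, while the share of all genes fell to between 7.82% and 10.2%. MT-RNR2 had the smallest adjusted P (0.0016), with 815 and 821 TPM in line label 79, 1131 and 1152 in line label 86 and 1419 and 1549 in line label 87, values that did not overlap between lines. MT-TL2 and MT-TS2 followed (0.0020 and 0.0022). For MT-CO1, the levels were 9137 and 8703 TPM with line label 79, 11634 and 10881 with line label 86 and 11579 and 11765 with line label 87 (0.011), so that line label 79 stood apart and the other two overlapped.

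Set directly against each other, line labels 79 and 86 had 8 called genes, all of them plus-strand tRNAs higher in 79 (background 9.8%, of which 3.5% higher). MT-TW was 1.39 ± 0.14 higher and MT-TL2 0.93 ± 0.07 higher on the log2 scale (adjusted P = 0.0024 and 0.0013). Of the 8, 6 passed the adjusted P, and MT-TV (0.61 ± 0.18) and MT-TK (0.68 ± 0.21) did not (0.083 each). Other genes passed the adjusted P in limma but not the fold threshold. Of these, MT-RNR2, MT-CO1, MT-CO2, MT-ND6, MT-TE and MT-TC were lower in 79, and MT-ND2 and MT-TI were higher. Between line labels 79 and 87, 4 genes were called (background 8.7%). MT-TW (1.11 ± 0.14) and MT-TK (0.68 ± 0.21, adjusted P = 0.095) were higher in 79, and MT-RNR2 (-0.86 ± 0.06) and MT-RNR1 (-0.78 ± 0.10) were lower. Below the fold threshold, MT-CO1, MT-CO2 and MT-TE (lower in 79) and MT-TG, MT-TH, MT-TS2 and MT-TL2 (higher) passed the adjusted P. Between line labels 87 and 86, 2 genes were called, MT-RNR1 (0.59 ± 0.10) and MT-TV (0.84 ± 0.18), both higher in 87 (background 6.46%). Here MT-TY and MT-TC (lower in 87) and MT-RNR2, MT-TG, MT-TH, MT-TS2 and MT-TL2 (higher) passed the adjusted P below the fold threshold. Of the 3 line labels, 79 had the most mitochondrial calls over the controls. It also had the largest share of all genes called, 7.95%, against 3.6% for 86 and 5.13% for 87. Its U11 level overlapped the controls, and a link between calls and U11 was not tested.

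The nuclear genes that make, cut, modify and translate mitochondrial RNA were examined as 7 lists of 87 genes in all, each of which was tested. In the libraries labelled U11 knockout 1 gene was up-regulated and 3 were down-regulated, where 8.61% and 3.15% of all genes tested were. MTRF1L, a mitochondrial release factor, was at 12.9 and 14.9 against 22.4 and 21.3 TPM (0.61 ± 0.12, adjusted P = 0.0497). TSFM, the exchange factor of the mitochondrial elongation factor Tu, was at 16.2 and 25.9 against 12.3 and 9.35 TPM (-0.87 ± 0.26, adjusted P = 0.11). PUS1, a pseudouridine synthase that acts on tRNA, was at 14.3 and 16.2 against 9.45 and 9.29 TPM (-0.65 ± 0.12, adjusted P = 0.045). FASTKD3, of a family that regulates mitochondrial RNA, was at 8.69 and 10.02 against 6.14 and 5.12 TPM (-0.65 ± 0.15, adjusted P = 0.066). The groups did not overlap in any of the 4, but these genes were picked by their call, so this is no further support.

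In the overexpression comparison GRSF1, which binds RNA in mitochondrial RNA granules, was up-regulated, at 53.5 and 49.3 TPM in the controls and 56.0 to 91.5 TPM in the 6 libraries (0.59 ± 0.17, adjusted P = 0.48). It was the only one of the 87 called there, where 1.93% of all genes were. It was also called with line label 79 (84.5 and 79.7 TPM) and line label 86 (77.3 and 84.3 TPM), where NSUN4, a methyltransferase of the mitochondrial ribosome, was called too (15.4 and 16.0 in the controls, 24.2 and 25.7 TPM; 0.63 ± 0.12, adjusted P = 0.067). These were 1 of 87 with line label 79 and 2 of 87 with line label 86, against 7.95% and 3.6% of all genes. With line label 87, 0 of the 87 were called by limma and 16 had an unadjusted P under 0.05, against 5.13% and 17.8% of all genes. In the lists of transcription, of replication and packaging of mitochondrial DNA, of precursor cutting and of the 20 mitochondrial aminoacyl-tRNA synthetases, 0 of 48 genes were called by limma in any of the 5 comparisons, for which the shares of all genes called were 11.8% (knockout), 1.93% (overexpression), 7.95% (79), 3.6% (86) and 5.13% (87). Of the 48, the numbers with an unadjusted P under 0.05 were 8, 2, 8, 2 and 10 in the same order, against 30.1%, 6.0%, 24.1%, 13.5% and 17.8% of all genes. The 8 genes for cutting the precursor, which make the ends of the tRNAs, had a median log2 fold change of 0.03 in the libraries labelled U11 knockout (0.11 over all genes, 5 of 8 higher) and of -0.11 over all overexpression libraries (-0.02 over all genes, 0 of 8 higher). By line label it was -0.04 for 79 (-0.03 over all genes, 3 of 8 higher), -0.11 for 86 (0.01, 1 of 8) and -0.22 for 87 (-0.01, 0 of 8, with 3 of 8 at an unadjusted P under 0.05).

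Part of the reads may be shared with nuclear copies of mitochondrial DNA. The tables listed 386 genes named as such copies, which summed to 1.15% to 1.82% of the mitochondrial TPM in the knockout comparison and to 2.80% to 3.40% in the overexpression comparison. MTATP6P1, MTCO1P12 and MTND2P28 were the highest in both. All 3 lie in one stretch of chromosome 1 and matched MT-ATP6, MT-CO1 and MT-ND2 of hg38 in 98.5%, 98.7% and 98.4% of aligned bases. Their means were 945, 457 and 331 TPM in the 8 libraries of the overexpression comparison and 9.48, 68.1 and 7.53 TPM in the 4 libraries of the knockout comparison. How reads were divided between such near-identical sequences is not given in the sources used here. The levels of MT-ATP6, MT-CO1 and MT-ND2 are therefore uncertain, by an amount that was not tested. MTATP6P1 was at 7.65 and 0.0069 TPM in the 2 controls of the knockout comparison and at 17.9 and 12.4 TPM under the knockout label. MT-ND4L and MT-ND4 overlap as well, and their ratio stayed between 0.833 and 1.02 in all 12 libraries.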

How the data were processed

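RNA from 12 T24 libraries was sequenced. The authors aligned reads to hg38 with Hisat2 and ran Stringtie on each library. They deposited TPM, FPKM and coverage per gene, without read counts, so count tests were not run. Coverage (mean aligned reads per base) divided by FPKM was the same for all mitochondrial genes of a library and gave its aligned gigabases. TPM does not show the size of the counting error behind it, so the spread between libraries sets the precision.

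Testing was limited to genes that reached 1 TPM in no fewer than 2 of the libraries compared. It was done on log2(TPM + 1) with limma 3.58.1 (R 4.3.3, mean-variance trend), and P-values were adjusted over all genes tested by the Benjamini-Hochberg method. Fold changes are on the log2(TPM + 1) scale, which understates changes of low genes. Class sums were compared with exact permutation tests. The pipeline was tested on simulated data. Sequences were read from hg38, and all 37 genes had the same coordinates in GENCODE release 44. 

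The members and gene lists were chosen with earlier results of these data known. All mRNAs and rRNAs were named, the called tRNAs (at most 5 per comparison), the 3 most abundant tRNAs and nuclear copies of each comparison, and the called genes of the nuclear lists. Other tRNAs were named after their values were seen. The alternatives were a pseudocount of 0.1, FPKM, 2 other scalings, other filters, no trend, a block, the mean of each line label, other thresholds and each library left out. Direct tests between line labels and ratios within a library set were added after seeing the data.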

Additional observations from a re-analysis of the deposited data

Results flagged for a closer look

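Mitochondrial genes whose level differed between the line labels 79, 86 and 87 were set apart by the F test in limma (2 libraries per label, adjusted P under 0.05). The adjusted P was 0.00157 for MT-RNR2 and 0.00786 for MT-RNR1. Among the plus-strand tRNAs it was 0.00199 for MT-TL2, 0.00219 for MT-TS2, 0.00283 for MT-TH, 0.00315 for MT-TW, 0.00396 for MT-TG, 0.0168 for MT-TR and 0.0482 for MT-TV. Among the minus-strand tRNAs it was 0.0154 for MT-TY, 0.0187 for MT-TE and 0.0283 for MT-TC. Among the mRNAs it was 0.0107 for MT-CO1, 0.0233 for MT-CO2, 0.0357 for MT-ND6 and 0.0449 for MT-ND2.

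A pair of minus-strand genes moved in opposite directions in the knockout and overexpression comparisons, with no overlap in either. MT-TY had a log2 fold change of 0.32 in the libraries labelled U11 knockout and of -0.43 in the overexpression libraries. MT-ND6 had 0.54 and -0.17. The difference between the comparisons was not tested, and neither gene was called in either. Of all genes tested, 39.9% were higher without overlap under the knockout label, and 9.87% did not overlap in the overexpression comparison. Under the knockout label 34 of the 36 mitochondrial genes tested were higher, and the U11 level goes against that label. In 41 groups of 4 to 10 values examined, 0 libraries stood apart from the rest of their group by Dixon's criterion.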

How the results depend on the processing

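The number of called mitochondrial genes in the libraries labelled U11 knockout was the least stable. From 3 it went to 0 with FPKM, 1 with median ratio scaling, 1 without a filter, 1 with the replicate block, 0 with adjusted P and 8 without a fold threshold, and to between 1 and 21 when each library was left out. In the overexpression comparison 0 genes became 4 without a fold threshold and 0 to 2 when a library was left out. With line label 79, 8 became 24 without a fold threshold and 8 to 12 when a library was left out. With line label 86, 1 became 0 with adjusted P, 4 without a fold threshold and 0 to 2 when a library was left out. With line label 87, 3 became 17 without a fold threshold and 1 to 9 when a library was left out. The genes that differed between line labels went from 16 to 9 without a filter, and to 8 to 14 when a library was left out. Between the controls of the comparisons 32 to 33 genes were called when a library was left out. MT-TT turned from -0.85 to 0.0370 there with FPKM and 0.0372 with median ratio scaling. The cause of these changes was not tested. Of the genes called with line label 79, MT-TI lost its call in 1 setting, without the second control (0.57). Each call with line label 87 was lost in some setting. MT-TI lost it with adjusted P, which left 2 genes called, and without the second control (0.47). MT-RNR1 lost it without the first control (0.45) or the first library of line label 87 (0.57), and MT-TY without that library or the second control (both -0.58). The mRNA sums kept their direction, with log2 differences of 0.37 to 0.74 (knockout) and of 0.029 to 0.10 (overexpression) when a library was left out. Groups of 1 library left by this were assumed to vary like the others.

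The replicate numbers of the knockout comparison are shared only as numbers (correlation of deviations 0.024). For the library sets of the overexpression comparison the correlations were 0.070 to 0.15. With the replicate block, 24 genes differed between line labels in place of 16 (19.5% of all genes tested in place of 16.0%), and the counts with line labels 79, 86 and 87 stayed at 8, 1 and 3.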
